A study of Homo sapiens with 8 samples.

Results

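10 genes of the BCL2 family of apoptosis regulators were examined in ovarian cancer (OC) cells that differ in BRCA1. They are the 10 rows of the deposited count table, out of 25369 named genes, whose symbol is BCL2, BCL2L1, MCL1, BAX, BAK1, BCL2L11, BMF, BID, BBC3 or PMAIP1. All 10 passed the filter on low counts that left 17714 tested genes. The BRCA1-null cells were UWB1.289, a human OC line whose BRCA1 mutation yields a truncated protein, and the BRCA1+ cells were UWB1.289 transduced with wild-type BRCA1, so that both lines carry the mutation and were grown in the same medium. Whether the transduced line is a single clone was not given in the sources used here. Each line was exposed for 24 h to DMSO, the vehicle (control), or to 0.5 uM entinostat, which inhibits the histone deacetylases HDAC1 and HDAC3. Poly(A) RNA was sequenced in 2 libraries for each of the 4 groups, 8 in all. The labels do not say that replicates came from separate cultures, so p-values measure the spread between these libraries, which may be technical.

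The proteins of this family decide whether the outer membrane of the mitochondrion is opened during apoptosis. Anti-apoptotic members (BCL2, BCL-XL from BCL2L1, MCL1) hold the effectors BAX and BAK in check, and BH3-only members (BIM from BCL2L11, BMF, BID, PUMA from BBC3, NOXA from PMAIP1) bind the anti-apoptotic members or activate the effectors directly. Once BAX or BAK forms pores, cytochrome c leaves the mitochondrion and caspases are activated. The anti-apoptotic members are drug targets in cancer, and transcripts of BH3-only genes are known to respond to stress signals and to histone deacetylase inhibitors.

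Total counts ranged from 31900158 to 53549893 per library, with the fewest in replicate 1 of BRCA1+ entinostat. Levels are given as CPM, the usual depth-scaled read count with TMM correction of the library sizes, and a level compared between genes is given as CPM per kb of the gene length in the table. The upper limit for a gene without reads, 3 counts, equalled 0.0552 to 0.0946 CPM and covers counting error only. BRCA1 itself was at 95.6 ± 4.63 CPM (SD, n = 2) in BRCA1+ control, 126 ± 10.97 in BRCA1+ entinostat, 21.7 ± 1.02 in BRCA1-null control and 18.4 ± 1.12 CPM in BRCA1-null entinostat libraries, in the order of the labels. The epithelial and ovarian carcinoma markers EPCAM, KRT7, KRT8, KRT18, KRT19, PAX8, MUC16 and MSLN were at 78.1 CPM or more in every library, whereas WT1 had 1 to 20 counts. Of 11 markers of other cell types, CD3E, CD79A, PDGFRB and DCN had 0 to 4 counts, and the other 7 (PTPRC, CD14, PECAM1, VWF, CDH5, COL1A1 and COL1A2) were detected in every library, from 20 to 3513 counts. The endothelial markers summed to 8.75 to 15.4 CPM in BRCA1+ control, 26.1 to 37.2 CPM in BRCA1+ entinostat, 32.3 to 52.4 CPM in BRCA1-null control and 69.8 to 90.2 CPM in BRCA1-null entinostat libraries. The fibroblast markers summed to 12.9 to 17.8, 25.6 to 33.7, 29.8 to 44.4 and 40.9 to 59.3 CPM in the same order, and the leukocyte markers to 5.15 to 6.21, 8.95 to 9.02, 2.65 to 3.91 and 3.85 to 5.61 CPM. CDH5, COL1A1, COL1A2 and VWF were called higher and CD14 lower in BRCA1-null than in BRCA1+ cells under both treatments, and CDH5 and COL1A1 were called higher with entinostat in each line. The part of these genes in the results below was not tested.

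The 10 transcripts spanned a wide range of expression in these cells, with medians per kb above 12.9% (BMF) to 97.6% (BCL2L1) of all tested genes. BCL2L1 was the most abundant, with a median of 176 CPM per kb over the 8 libraries (138 to 210), above 97.6% of all tested genes, and MCL1 followed with 82.4 CPM per kb (67.7 to 89.3). The founding member BCL2 was nearly absent by comparison, at 0.58 CPM per kb (0.49 to 0.80). BCL2 therefore made up 0.21% to 0.29% of the summed level of the 3 anti-apoptotic genes in a library, and BCL2L1 61.3% to 75.4%.

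BAX stood at 48.2 CPM per kb (40.5 to 59.8) and exceeded BAK1, at 14.6 CPM per kb (11.3 to 18.7), in every library. BID was the highest of the 5 BH3-only genes examined, at 20.6 to 28.3 CPM per kb, and held 48.9% to 60.5% of their summed level. PMAIP1 (12.4 CPM per kb), BCL2L11 (4.67), BBC3 (3.00) and BMF (0.27) followed. Neighbours in this order whose ranges over the 8 libraries overlapped were BAK1 and PMAIP1, BCL2L11 and BBC3, and BCL2 and BMF, and for the other neighbours the ranges were separate. The first 4 places were the same in all 4 groups, and BAK1 and PMAIP1 changed places in BRCA1-null control.

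**Figure D1:**
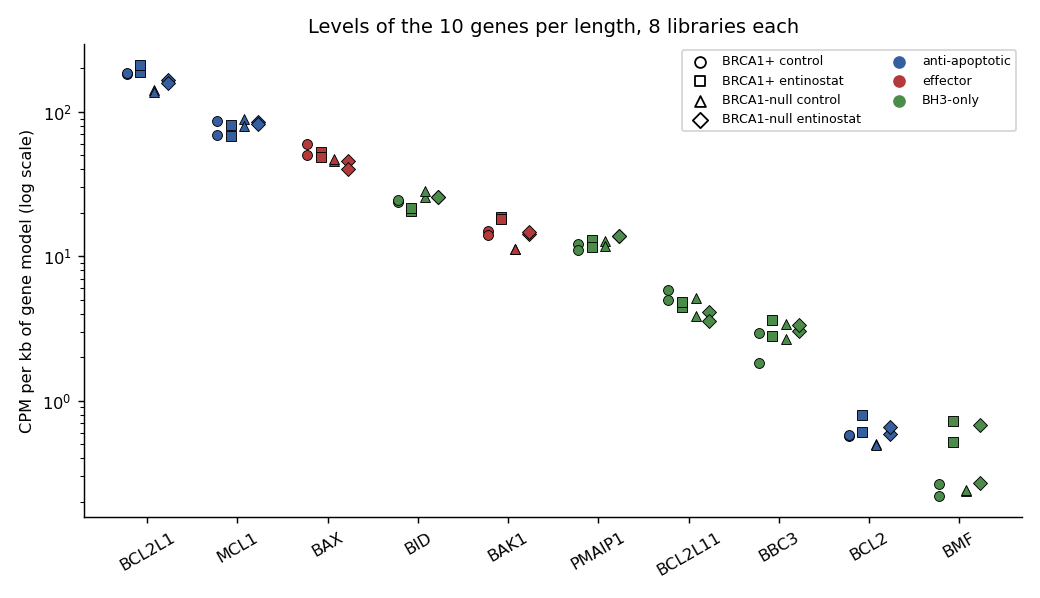
Level of each of the 10 BCL2 family genes in CPM per kb of gene length (log axis), with 1 symbol per library, its shape giving the group and its colour the role. BCL2L1 lies highest (138 to 210 CPM per kb) and BMF and BCL2 lowest (0.22 to 0.80 CPM per kb).

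The comparison of the lines asks how the transcripts differ with BRCA1. In DMSO, BCL2L1 and BAK1, an anti-apoptotic and a pro-apoptotic gene, were lower in BRCA1-null than in BRCA1+ cells, at 0.75-fold and 0.78-fold, and the other 8 genes did not pass the test. These 2 called genes of 10 stand against 42.2% of all 17714 genes called in this comparison (21% lower), and the median log2 difference of the 10 was -0.11, against 0.012 over all genes. In entinostat the same 2 genes were lower and BID was higher in BRCA1-null cells, that is 3 called genes of 10 against a background of 39.4% (18.9% lower, 20.5% higher). The libraries of the lines did not overlap for 5 of the 10 genes in DMSO and for 7 in entinostat, where 70.9% and 69.5% of all genes did not overlap.

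The comparison of treatments asks how each line responds to the deacetylase inhibitor, and it shares its control libraries with the comparison of the lines in DMSO. Entinostat raised BAK1 in both lines, by 1.27-fold in BRCA1+ and by 1.29-fold in BRCA1-null cells, and it raised BCL2L1 in BRCA1-null cells by 1.16-fold. Called genes numbered 1 of 10 in BRCA1+ cells, against 14.1% of all genes (8.13% higher), and 2 of 10 in BRCA1-null cells, against 10.8% (7.57% higher). BMF had the largest fold changes of the 10 genes, 2.60-fold and 2.01-fold, at 42 to 160 counts per library. The edgeR test on all 8 libraries called it in neither line. In BRCA1+ cells BMF was called in 6 of 16 alternatives. Among them were the DESeq2 Wald test (adjusted p 0.0157) and edgeR with only the groups compared in the fit (adjusted p 0.0136). Libraries did not overlap for 6 of the 10 genes in BRCA1+ cells (57% of all genes) and for 5 in BRCA1-null cells (54.7%).

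The effects of entinostat in the 2 lines were also averaged within the same fit, a contrast added after the data had been seen. It called BAK1, BMF and BCL2L1 higher and no member lower, 3 of 10 genes, where 26.1% of all genes were called and 15.2% called higher. BAK1 kept its call in this contrast under every alternative setting run, with adjusted p-values from 1.78e-05 to 0.00764 (edgeR quasi-likelihood or DESeq2 Wald tests).

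**Figure D2:**
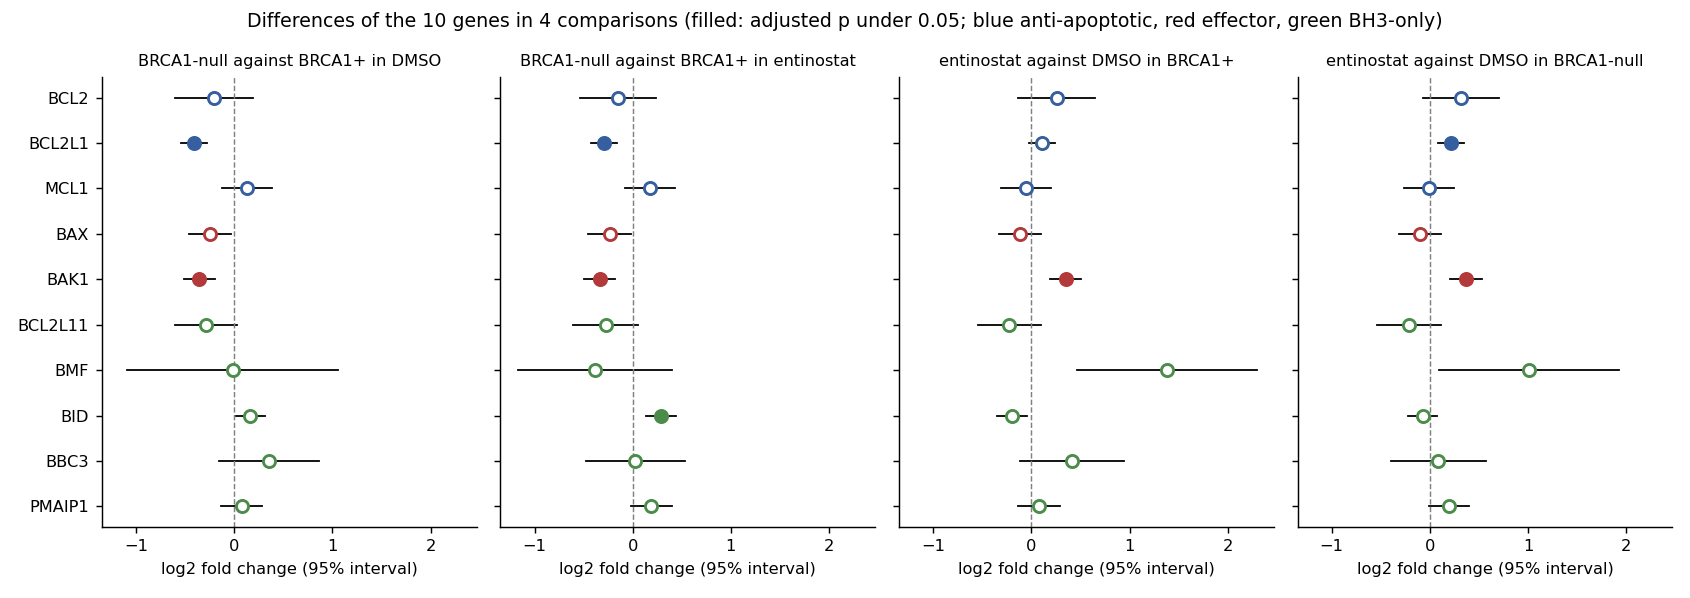
Log2 fold change of each gene with its 95% interval in 4 comparisons: BRCA1-null against BRCA1+ in DMSO and in entinostat, and entinostat against DMSO in each line. Filled symbols mark an adjusted p under 0.05, which BCL2L1 and BAK1 have on the lower side in both comparisons of the lines and BAK1 on the higher side in both comparisons of treatments.

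Among the anti-apoptotic genes, BCL2L1 (chromosome 20, 30252261 to 30310656 on hg19, minus strand), which encodes BCL-XL, differed most clearly. Its level was 472 and 479 CPM in untreated and 487 and 536 CPM in treated BRCA1+ libraries, and 364 and 354 CPM in untreated and 428 and 407 CPM in treated BRCA1-null libraries. All 4 BRCA1-null libraries lay below all 4 BRCA1+ libraries, and within each line the treated libraries lay above the controls. Between the lines the log2 difference was -0.41 ± 0.0583 (SE) in DMSO (0.75-fold, FDR 5.52e-04) and -0.29 ± 0.0583 in entinostat (FDR 0.00346), where FDR is the p-value of the quasi-likelihood test of edgeR, adjusted by Benjamini-Hochberg over all tested genes, here and in what follows. Entinostat changed it by 0.22 ± 0.0583 in BRCA1-null cells (FDR 0.0459) and by 0.11 ± 0.0582 in BRCA1+ cells (FDR 0.275). The call in BRCA1-null cells was lost in 12 of 16 alternatives, with an FDR up to 0.202, while both differences between the lines held in all of them. Averaged over the lines the rise was 0.16 ± 0.0412 (FDR 0.0195). The averaged call was lost without replicate 1 of BRCA1+ control (0.0622), replicate 2 of BRCA1+ entinostat (0.0863), replicate 2 of BRCA1-null control (0.0627) or replicate 1 of BRCA1-null entinostat (0.0628).

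MCL1 (chromosome 1, 150547027 to 150552214, minus strand), a short-lived guardian of mitochondria that NOXA binds, was high in every group. It was not called in any comparison of the main edgeR fit. Its libraries held 351 and 281 CPM in untreated and 333 and 276 CPM in treated BRCA1+ libraries, and 365 and 326 CPM in untreated and 347 and 339.7 CPM in treated BRCA1-null libraries. The replicates of the BRCA1+ groups lay further apart than the means of any of the groups, replicate 1 was above replicate 2 in all 4 groups, and the lines were separate in entinostat but not in DMSO. Entinostat gave log2 changes of -0.053 (95% interval -0.31 to 0.20) in BRCA1+ and -0.0085 (-0.26 to 0.25) in BRCA1-null cells. The lines differed by 0.13 (FDR 0.396) in DMSO and by 0.17 (FDR 0.264) in entinostat. With the replicate block the difference in entinostat was 0.18 (FDR 0.0424), although the labels do not tie replicate numbers to a shared batch. Its listed position overlaps SRGAP2D, FAM72C and ADAMTSL4-AS1, which had 6 to 717 counts against 10568 or more for MCL1.

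BCL2 (chromosome 18, 60790579 to 60986613, minus strand), the gene that gives the family its name, had 151 to 186 counts per library. In CPM these were 3.78 and 3.83 in untreated and 5.30 and 4.01 in treated BRCA1+ libraries, and 3.34 and 3.26 in untreated and 3.90 and 4.33 in treated BRCA1-null libraries. Treated libraries lay above the controls in both lines, and the control libraries of the lines did not overlap. None of the differences was called: entinostat gave 0.26 ± 0.173 in BRCA1+ (FDR 0.369) and 0.32 ± 0.172 in BRCA1-null cells (FDR 0.271), and 0.29 ± 0.122 on average (FDR 0.115).

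Of the effectors, BAK1 (chromosome 6, 33540323 to 33548070, minus strand), which encodes the pore-forming protein BAK, differed in all 4 comparisons. It was at 32.7 and 30.8 CPM in untreated and 41.0 and 39.8 CPM in treated BRCA1+ libraries, and 24.8 and 24.8 CPM in untreated and 31.5 and 32.6 CPM in treated BRCA1-null libraries. Replicates were close to each other, treated libraries lay above the controls in each line, and the treated BRCA1-null libraries reached the range of the untreated BRCA1+ libraries. The lines differed by -0.35 ± 0.0709 in DMSO (0.78-fold, FDR 0.00358) and by -0.33 ± 0.0696 in entinostat (FDR 0.00449). Entinostat raised it by 0.35 ± 0.0698 in BRCA1+ (FDR 0.0127) and by 0.37 ± 0.0707 in BRCA1-null cells (FDR 0.0146), and by 0.36 ± 0.0497 on average (FDR 0.00123). The differences between the lines held under every alternative, but the call in BRCA1+ cells was lost without replicate 2 of BRCA1+ control (FDR 0.0850) or without replicate 1 (0.0792) or 2 (0.0745) of BRCA1+ entinostat. That in BRCA1-null cells was lost without replicate 1 (0.0634) or 2 (0.0788) of BRCA1-null control, without replicate 1 (0.0602) or 2 (0.0673) of BRCA1-null entinostat, and with only those 4 libraries in the fit (0.0556). BAK1 has processed pseudogenes, and the treatment of reads with several positions was not stated, so reads may be shared with them.

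BAX (chromosome 19, 49458117 to 49465055, plus strand), the other effector, resides in the cytosol until it is activated. Its libraries held 78.0 and 65.9 CPM in untreated and 69.1 and 64.1 CPM in treated BRCA1+ libraries, and 59.3 and 61.8 CPM in untreated and 60.0 and 52.9 CPM in treated BRCA1-null libraries. The lines did not overlap in either treatment, with BRCA1-null below, and the treatments overlapped in both lines. The differences between the lines, -0.25 ± 0.0942 in DMSO (FDR 0.0605) and -0.24 ± 0.0958 in entinostat (FDR 0.0800), did not pass the test. In DMSO the FDR ranged from 0.0176 to 0.351 over the alternatives, and it passed the threshold with the DESeq2 Wald test (0.0456), the replicate block (0.0176) and without replicate 2 of BRCA1+ control (0.0222). In entinostat it passed with the replicate block (0.0213), with only the groups compared in the fit (0.0490), and without replicate 1 (0.0401) or 2 (0.0473) of BRCA1+ control. Entinostat gave -0.11 (95% interval -0.33 to 0.10) in BRCA1+ and -0.100 (-0.31 to 0.11) in BRCA1-null cells.

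Of the BH3-only genes, BMF (chromosome 15, 40380091 to 40401085, minus strand), whose protein is held at the cytoskeleton by a dynein light chain, had 42 and 58 counts in untreated and 78 and 160 counts in treated BRCA1+ libraries, and 52 and 63 counts in untreated and 152 and 54 counts in treated BRCA1-null libraries, or 1.05 and 1.26, 2.46 and 3.45, 1.14 and 1.16, and 3.24 and 1.29 CPM. The 4 control libraries were close to each other, and 3 of the 4 treated libraries lay well above them, whereas replicate 2 of BRCA1-null entinostat lay just above the controls. Entinostat gave 1.38 ± 0.406 in BRCA1+ cells (FDR 0.0528), 1.01 ± 0.406 in BRCA1-null cells (FDR 0.147) and 1.19 ± 0.287 on average (2.29-fold, FDR 0.0152). In BRCA1+ cells the adjusted p was under the threshold in 6 of 16 alternatives, among them the DESeq2 Wald test (0.0157). The fits without replicate 1 or 2 of BRCA1-null entinostat, libraries of the other line, were also among them, with the change still at 1.38. Without 1 library the change in BRCA1+ cells ranged from 1.07 to 1.57. In BRCA1-null cells the change was 1.49 without replicate 2 of BRCA1-null entinostat (FDR 0.0229) and 0.17 without replicate 1 (FDR 0.838). The averaged call was lost without replicate 2 of BRCA1+ entinostat (1.04, FDR 0.0765), and the averaged change was 0.77 without replicate 1 of BRCA1-null entinostat. Between the lines BMF differed by -0.015 in DMSO (95% interval -1.09 to 1.06) and by -0.39 in entinostat (-1.17 to 0.40), where it was -1.23 without replicate 1 of BRCA1-null entinostat (FDR 0.0173).

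BID (chromosome 22, 18216906 to 18257431, minus strand), which caspase-8 cleaves to link death receptors to mitochondria, was the most abundant transcript of the BH3-only members examined. It was at 63.3 and 65.0 CPM in untreated and 54.9 and 57.3 CPM in treated BRCA1+ libraries, and 68.6 and 75.2 CPM in untreated and 68.0 and 68.8 CPM in treated BRCA1-null libraries. All BRCA1-null libraries lay above all BRCA1+ libraries, and the treated BRCA1+ libraries were the lowest. The lines differed by 0.29 ± 0.0669 in entinostat (1.22-fold, FDR 0.00818), which was 0.24 without replicate 1 of BRCA1+ entinostat (FDR 0.0714), and by 0.16 ± 0.0656 in DMSO (FDR 0.0708), which passed without replicate 1 of BRCA1-null control (0.0345), with the filter at 1 CPM (0.0299) and with upper-quartile factors (0.0301). Entinostat gave -0.19 ± 0.0671 in BRCA1+ (FDR 0.0898), -0.073 ± 0.0654 in BRCA1-null cells (FDR 0.524) and -0.13 ± 0.0468 on average (FDR 0.0658, and 0.0397 without replicate 1 of BRCA1-null control).

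BCL2L11 (chromosome 2, 111878491 to 111926022, plus strand) encodes BIM, which binds all the anti-apoptotic members and activates the effectors. Its libraries held 31.1 and 36.6 CPM in untreated and 27.9 and 30.0 CPM in treated BRCA1+ libraries, and 32.02 and 23.8 CPM in untreated and 25.6 and 22.3 CPM in treated BRCA1-null libraries. Group means were lower with entinostat in each line and lower in BRCA1-null cells under each treatment, but no difference was called. Entinostat gave -0.22 ± 0.143 and -0.21 ± 0.144 (FDR 0.348 and 0.387), and the lines differed by -0.29 ± 0.140 in DMSO (FDR 0.133) and by -0.27 ± 0.146 in entinostat (FDR 0.172). Replicate 1 of BRCA1-null control was higher than replicate 2, and without it the difference in DMSO was -0.49 (FDR 0.0207). Without replicate 2 of that group the averaged effect of entinostat was -0.32 (FDR 0.0304), against -0.22 with all libraries (FDR 0.149).

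BBC3 and PMAIP1 encode PUMA and NOXA, which are known targets of p53. BBC3 (chromosome 19, 47724079 to 47736023, minus strand) was at 6.15 and 3.86 CPM in untreated and 7.57 and 5.84 CPM in treated BRCA1+ libraries, and 7.14 and 5.61 CPM in untreated and 6.42 and 7.04 CPM in treated BRCA1-null libraries. The groups overlapped in all 4 comparisons, with the lowest value in replicate 2 of BRCA1+ control. The lines differed in DMSO by 0.36 ± 0.227 (FDR 0.239), which was 0.71 without replicate 1 of BRCA1+ control (FDR 0.0486). Entinostat gave 0.41 ± 0.235 in BRCA1+ (FDR 0.289) and 0.085 ± 0.214 in BRCA1-null cells (FDR 0.844).

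PMAIP1 (chromosome 18, 57567192 to 57571538, plus strand) varied least of the 10 genes, with 1.27 times between its lowest and highest library. It was at 23.6 and 21.3 CPM in untreated and 25.04 and 22.4 CPM in treated BRCA1+ libraries, and 24.6 and 22.7 CPM in untreated and 27.0 and 26.9 CPM in treated BRCA1-null libraries. The treated BRCA1-null libraries were the highest and did not overlap with any other group. Their difference from BRCA1-null control was 0.19 ± 0.0890 (FDR 0.202) and from BRCA1+ entinostat 0.19 ± 0.0912 (FDR 0.131), neither of which passed the test.

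**Figure D3:**
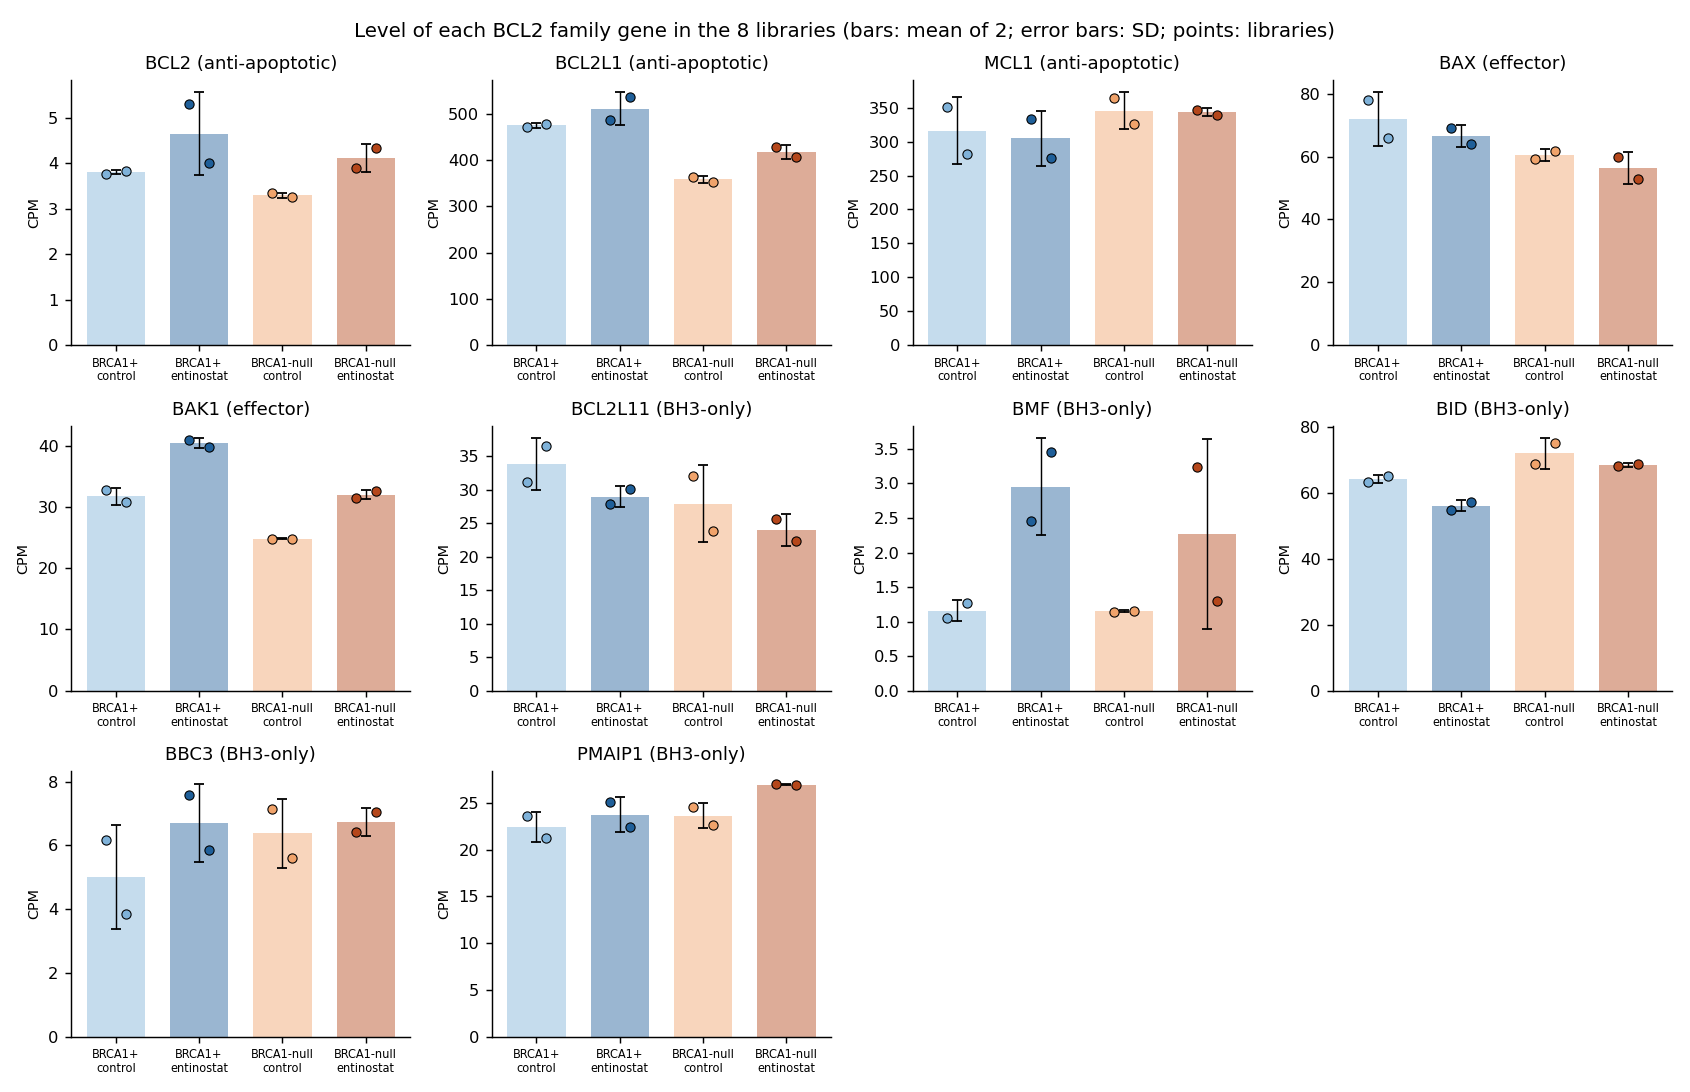
Level of each of the 10 genes in CPM (each panel with its own axis from 0), with a point for each library, a bar for the mean of 2 and an error bar for the SD, by line and treatment. BAK1 lies higher with entinostat in both lines (24.8 to 32.7 CPM in controls, 31.5 to 41.0 CPM treated), while the 2 treated BRCA1-null libraries of BMF (3.24 and 1.29 CPM) lie far apart.

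Whether the response to entinostat differed between the lines was tested as an interaction, that is the log2 change of BRCA1-null cells less the log2 change of BRCA1+ cells. No member was called in this edgeR test or by the DESeq2 Wald test, and 0 members had an unadjusted p under 0.05. Of all 17714 genes 0% were called, with 827 (4.67%) at an unadjusted p under 0.05 and 11 called by the DESeq2 Wald test. Adjusted p-values of the 10 members lay between 0.967 and 0.999. The estimate for BAK1 was 0.019 (95% interval -0.21 to 0.24) and that for BCL2L1 0.11 (-0.073 to 0.30). For BMF it was -0.37 (-1.71 to 0.96), an interval that does not exclude large differences in either direction. The calls of BCL2L1 in BRCA1-null cells alone and of BID between the lines in entinostat alone were therefore not shown to depend on the other condition.

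Levels of the members relative to each other are given per kb and as a description, without a test. BAX exceeded BAK1 by 4.01 and 3.60 times in the BRCA1+ control libraries and by 4.02 and 4.18 times in BRCA1-null control. With entinostat the ratio was 2.84 and 2.71 in BRCA1+ and 3.21 and 2.73 in BRCA1-null cells, so that all treated libraries lay below all controls. BCL2L1 exceeded MCL1 by 2.15 to 3.10 times in the BRCA1+ libraries and by 1.59 to 1.96 times in the BRCA1-null libraries. The ratio of PMAIP1 to its partner MCL1 was 0.142 to 0.160 in controls and 0.159 to 0.171 with entinostat.

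The sum of the 3 anti-apoptotic genes over that of the 5 BH3-only genes was 6.14 and 5.91 in untreated and 6.46 and 6.70 in treated BRCA1+ libraries, and 4.91 and 4.68 in untreated and 5.33 and 5.17 in treated BRCA1-null libraries. The 4 groups were separate in this ratio, with BRCA1-null below BRCA1+ and control below entinostat in each line. The sums are carried by BCL2L1, MCL1 and BID, and transcript levels say nothing of the amounts of the proteins.

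**Figure D4:**
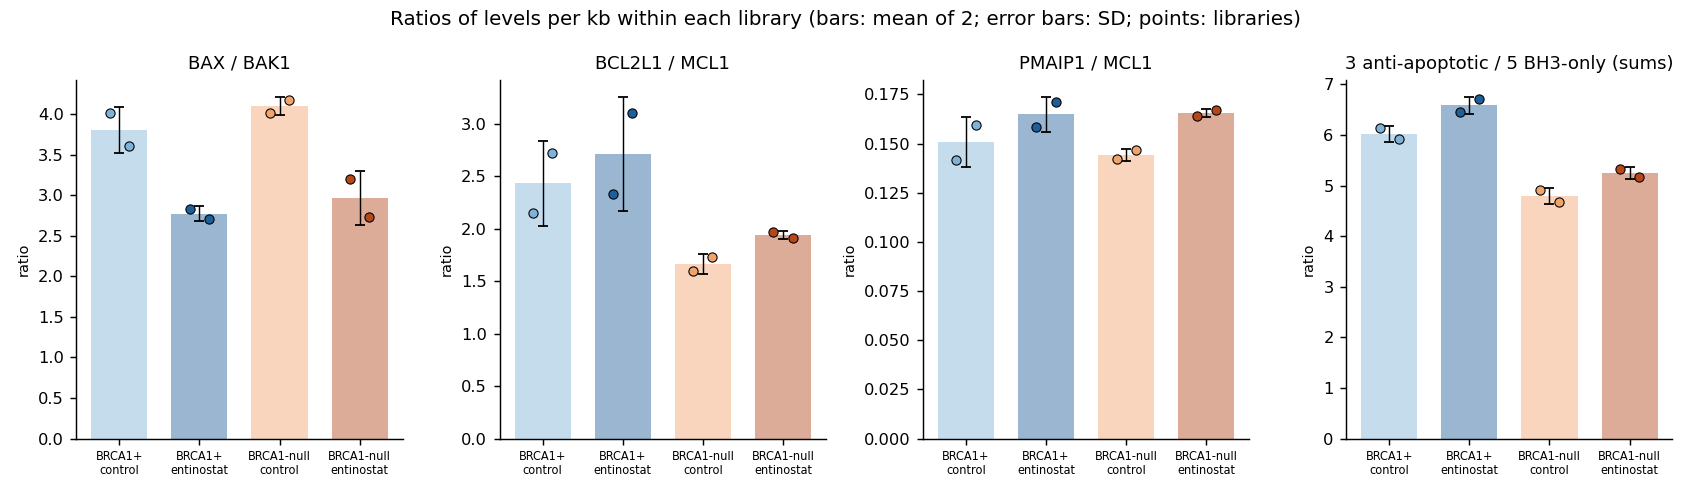
Ratios of levels per kb within each library (points), with the mean of 2 (bars) and the SD (error bars): BAX to BAK1, BCL2L1 to MCL1, PMAIP1 to MCL1, and the sum of 3 anti-apoptotic to 5 BH3-only genes. BAX to BAK1 is 3.60 to 4.18 in control and 2.71 to 3.21 in entinostat libraries, and the last ratio is 4.68 to 5.33 in BRCA1-null and 5.91 to 6.70 in BRCA1+ libraries.

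The 250 bases before the transcription start are shown for the 3 genes that were called with entinostat when the lines were averaged, because deacetylase inhibitors act on chromatin at such regions. They come from RefSeq on GRCh38.p14, which lists such a region for 9 of the 10 genes (not MCL1), and are written 5′ to 3′ on the gene's strand, with the first listed start of each gene. Which start these cells use was not measured here. Capitals mark a GC box (GGGCGG or, on the other strand, CCGCCC), which SP1-like factors are known to bind, or a CCAAT box (CCAAT or ATTGG), which NF-Y is known to bind.
BAK1 (chr6:33580277-33580526, minus strand): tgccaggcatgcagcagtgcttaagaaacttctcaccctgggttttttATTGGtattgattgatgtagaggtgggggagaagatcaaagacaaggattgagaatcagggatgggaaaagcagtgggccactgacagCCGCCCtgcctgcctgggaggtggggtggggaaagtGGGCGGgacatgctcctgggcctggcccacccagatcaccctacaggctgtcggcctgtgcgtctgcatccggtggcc
BMF (chr15:40108880-40109129, minus strand): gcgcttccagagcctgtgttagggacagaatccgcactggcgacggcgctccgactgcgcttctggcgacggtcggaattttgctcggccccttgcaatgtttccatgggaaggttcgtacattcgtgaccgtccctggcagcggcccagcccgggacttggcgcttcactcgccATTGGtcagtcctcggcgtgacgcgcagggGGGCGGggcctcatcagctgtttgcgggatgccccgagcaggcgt
BCL2L1 (chr20:31723964-31724213, minus strand): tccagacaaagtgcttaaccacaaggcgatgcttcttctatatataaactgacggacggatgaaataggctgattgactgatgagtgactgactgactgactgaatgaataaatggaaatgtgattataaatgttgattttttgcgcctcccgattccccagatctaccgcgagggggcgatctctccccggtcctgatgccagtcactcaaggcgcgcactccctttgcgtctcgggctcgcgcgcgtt
The BAK1 region held 2 GC boxes and 1 CCAAT box, the BMF region 1 of each, and the BCL2L1 region neither. BMF and BCL2L1 each have a second listed start, whose region held neither box, so the matches of BMF depend on the start chosen. Of the 9 listed members, 6 had a GC box and 5 a CCAAT box in the first listed region. Over all 35116 regions of this length, 42.6% held a GC box and 32.01% a CCAAT box. These matches describe the letters only.

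Because differences between the lines can be shared by neighbours on a chromosome, each member was set beside the 25 tested genes on either side, a step chosen after the data had been seen. Around BAK1 the median log2 difference between the lines in DMSO was -0.25 over 50 neighbours, of which 20 were called lower and 5 higher. Around BAX it was also -0.25, with 23 called lower and 3 higher, the same as for BAX itself. Around BCL2L1 the median was -0.088, with 12 called lower and 5 higher, and its own difference lay below that of 80% of its neighbours. More neighbours were lower than higher around BBC3 as well (16 and 9), a gene whose own difference was 0.36. The same held around MCL1 (11 and 9) and BID (7 and 4, of 37 neighbours). More were higher than lower around BCL2 (12 and 10), BCL2L11 (11 and 8), BMF (8 and 2) and PMAIP1 (11 and 10). Of all 17714 tested genes, 3727 were called lower (21%) and 3745 higher. With entinostat, averaged over the lines, the neighbours of BAK1 had a median of 0.11 against 0.36 for BAK1. The part of position in these differences was not tested.

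The wider apoptosis pathway was described from 8 lists compiled from general knowledge. Of all genes, 42.2% were called between the lines in DMSO, and 14.1% and 10.8% with entinostat in BRCA1+ and BRCA1-null cells. The counts of each list stand against these shares. Anti-apoptotic relatives (3 tested) had 1 gene called lower in BRCA1-null cells in DMSO, BCL2L12 (-0.35 ± 0.0672, FDR 0.00267), and none was called with entinostat in either line (1 gene in BRCA1+ and 0 in BRCA1-null cells at an unadjusted p under 0.05, and 0 by the DESeq2 Wald test). Among 13 tested effector and BH3-only relatives, a list that also holds a read-through transcript of the anti-apoptotic BCL2L2, 4 were higher and 1 was lower in DMSO (38.5% called, against 42.2% of all genes). With entinostat 1 of the 13 was called in the BRCA1+ line (7.69%, against 14.1% of all genes). In the BRCA1-null line 0 were called, against 10.8% of all genes (2 at an unadjusted p under 0.05, and 1 by the DESeq2 Wald test).

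BIK, a BH3-only gene whose protein sits at the endoplasmic reticulum, differed more between the lines than any of the 10 members. It had 54 and 59 counts in untreated and 98 and 133 counts in treated BRCA1+ libraries, and 668 and 640 counts in untreated and 663 and 525 counts in treated BRCA1-null libraries. All BRCA1-null libraries lay far above all BRCA1+ libraries, and treated BRCA1+ libraries lay above their controls. The difference between the lines in DMSO was 3.32 ± 0.189 (FDR 3.24e-06). Entinostat raised it by 1.17 ± 0.255 in BRCA1+ cells (FDR 0.0183) and gave 0.023 ± 0.124 in BRCA1-null cells (FDR 0.932), with an interaction of -1.15 ± 0.284 (unadjusted p 0.00289, FDR 0.967). HRK, another BH3-only gene, was higher by 1.41 ± 0.417 (FDR 0.0229) in BRCA1-null control, at 76 and 51 counts against 23 and 18, and BNIP1 differed by -0.56 ± 0.0913 (FDR 0.00118).

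Downstream of mitochondria, 16 genes of the caspase cascade and apoptosome were tested, and 3 were higher and 3 lower in BRCA1-null cells in DMSO. That is 37.5% called, against 42.2% of all genes. CASP9, the initiator caspase of the apoptosome, differed by -0.54 ± 0.0965 (FDR 0.00194). CYCS, which encodes cytochrome c and has many pseudogenes, was higher by 0.19 ± 0.0535 (FDR 0.0174). With entinostat 2 genes were lower in each line, CFLAR among them in both. That is 12.5% called in each line, against 14.1% of all genes in BRCA1+ and 10.8% in BRCA1-null cells. CFLAR, an inhibitor of caspase-8, was at 95.7 and 89.5 CPM in untreated and 77.7 and 75.1 CPM in treated BRCA1+ libraries, and 107 and 104 CPM in untreated and 90.8 and 85.0 CPM in treated BRCA1-null libraries. Treated libraries lay below the controls in both lines, with changes of -0.28 ± 0.0638 (FDR 0.0227) and -0.26 ± 0.0626 (FDR 0.0318).

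Of 10 tested IAP proteins, which restrain caspases, and their antagonists, 4 were higher and none lower in BRCA1-null cells in DMSO. That is 40% called, against 42.2% of all genes (3745 higher and 3727 lower). BIRC3 was higher by 1.93 ± 0.362 (FDR 0.00252) and XAF1, an antagonist of XIAP, by 1.56 ± 0.327 (FDR 0.00455). XAF1 had 19 and 28 counts in BRCA1+ control and 91 and 70 in BRCA1-null control libraries. With entinostat 1 gene was called in BRCA1+ cells (10%, against 14.1% of all genes), BIRC5, which was lower (-0.23 ± 0.0652, FDR 0.0439). No gene of this list was called in BRCA1-null cells, against 10.8% of all genes (1 at an unadjusted p under 0.05, and 0 by the DESeq2 Wald test). Among 11 tested death receptors and ligands, 5 were higher and 1 was lower in BRCA1-null cells in DMSO (54.5% called, against 42.2% of all genes). The lower gene was FAS, a death receptor, at 35.6 and 34.7 CPM in BRCA1+ control and 25.3 and 21.8 CPM in BRCA1-null control (-0.58 ± 0.0914, FDR 9.36e-04).

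With entinostat 3 genes of this list were called in BRCA1+ cells, all higher (27.3%, against 14.1% of all genes). In BRCA1-null cells 1 was called (9.09%, against 10.8%), TNFSF10, which encodes the death ligand TRAIL. It had 47 and 64 counts in untreated and 106 and 153 counts in treated BRCA1+ libraries, and 156 and 147 counts in untreated and 262 and 192 counts in treated BRCA1-null libraries. In CPM the BRCA1-null libraries lay above the BRCA1+ libraries in DMSO (1.23 ± 0.233, FDR 0.00260), and treated libraries lay above controls in both lines. Entinostat raised it by 1.36 ± 0.238 in BRCA1+ (FDR 0.00758) and by 0.75 ± 0.173 in BRCA1-null cells (FDR 0.0283; the DESeq2 Wald test called no gene of this list there), with an interaction of -0.61 ± 0.300 (FDR 0.967).

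Of 20 binding partners and turnover factors of the members, 3 were higher and 7 lower in BRCA1-null cells in DMSO. That is 50% called, against 42.2% of all genes. DYNLL2, the dynein light chain that tethers BMF, was higher by 0.79 ± 0.0772 (FDR 6.06e-05), and VDAC1, a channel of the outer mitochondrial membrane, differed by -0.72 ± 0.0528 (FDR 1.31e-05). With entinostat 1 gene of this list was called in BRCA1+ cells (5%, against 14.1% of all genes), the calcium channel ITPR3 (0.37 ± 0.0600, FDR 0.00598). None was called in BRCA1-null cells, against 10.8% of all genes (1 at an unadjusted p under 0.05, and 0 by the DESeq2 Wald test).

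A list of 19 genes held transcription factors known to act on members and a pseudokinase. In BRCA1-null cells in DMSO 5 were higher, the pseudokinase among them, and 3 lower (42.1% called, against 42.2% of all genes). FOXO1, a factor known to act on BH3-only genes, was at 56.7 and 50.3 CPM in untreated and 71.4 and 65.1 CPM in treated BRCA1+ libraries, and 99.8 and 97.9 CPM in untreated and 117 and 125 CPM in treated BRCA1-null libraries. The 4 groups were separate. With entinostat it was the only called gene of the list in BRCA1+ cells and 1 of 2 in BRCA1-null cells. The differences of FOXO1 were 0.89 ± 0.0771 between the lines in DMSO (FDR 3.14e-05), 0.35 ± 0.0786 with entinostat in BRCA1+ (FDR 0.0206) and 0.29 ± 0.0745 in BRCA1-null cells (FDR 0.0396). MITF, a regulator of BCL2 in melanocytes, differed by -1.28 ± 0.151 between the lines in DMSO (FDR 1.76e-04) and rose by 0.59 ± 0.159 with entinostat in BRCA1-null cells (FDR 0.0477).

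Of 24 tested p53 target genes outside the members, 7 were higher and 9 lower in BRCA1-null cells in DMSO. That is 66.7% called, against 42.2% of all genes, with a median of 0.10, against 0.012. Between the lines in entinostat 7 were higher and 8 lower (62.5% called, against 39.4% of all genes). The median there had the other sign, at -0.29, against 0.019. The genes called in DMSO included AEN (0.73 ± 0.0949, FDR 3.13e-04) and PHLDA3 (-2.12 ± 0.450, FDR 0.00484). PHLDA3 had 115 and 79 counts in BRCA1+ control and 20 and 32 in BRCA1-null control libraries. With entinostat 3 of the 24 were higher in the BRCA1+ line (12.5% called, against 14.1% of all genes). In the BRCA1-null line 2 were higher (8.33% called, against 10.8%), and CDKN1A was called in both lines. The edgeR test called BBC3, PMAIP1 and BAX in none of the 4 comparisons, while the DESeq2 Wald test called BAX between the lines in DMSO (adjusted p 0.0456).

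**Figure D5:**
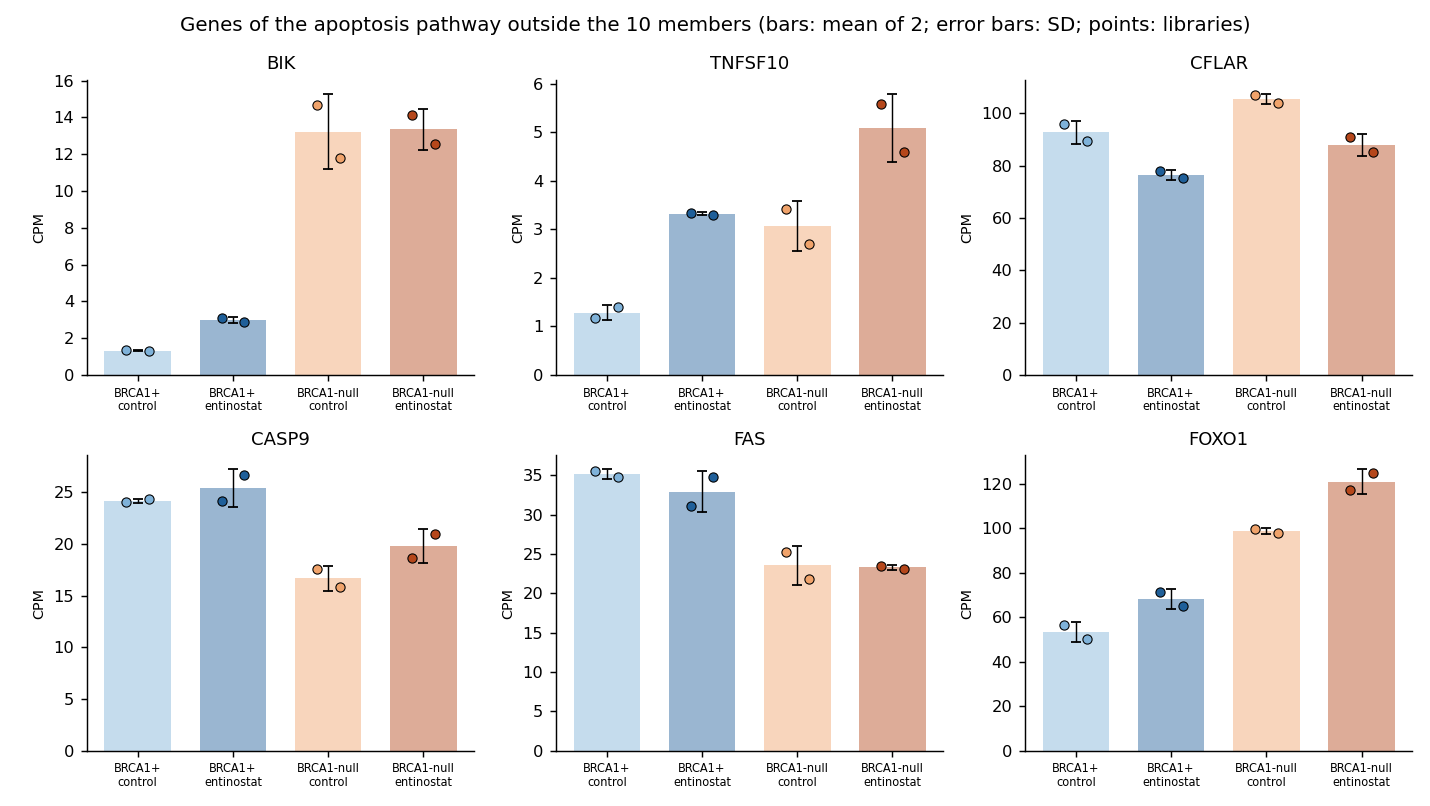
Level in CPM (axes from 0) of 6 genes of the apoptosis pathway outside the 10 members, with a point for each library, a bar for the mean of 2 and an error bar for the SD. BIK lies near 1.3 CPM in BRCA1+ control and above 11 CPM in all BRCA1-null libraries, and CFLAR lies lower and TNFSF10 and FOXO1 higher with entinostat in both lines.

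The gene whose pattern over the 8 libraries was most like that of each member was sought among 10404 or 10405 genes whose log2 CPM averaged at least 3. For BAK1 it was PPP1CB, a phosphatase subunit (Pearson's r of log2 CPM 0.995), and for BCL2L1 it was ATG4C, an autophagy protease (0.992). The other pairs were BID with RNPEPL1 (0.990), MCL1 with SIX4 (0.989), BAX with RASSF1 (0.978), BBC3 with ZNF609 (0.976), BCL2 with PEAK1 (0.969), BCL2L11 with RCBTB2 (0.968), PMAIP1 with CNTRL (0.968) and BMF with THEMIS2 (0.925). The 8 points of each pair are the same libraries in 4 groups, and the highest of so many values is high by selection. Among the 10 members themselves the highest value was that of BCL2L1 with BAK1 (0.884).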

How the data were processed

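Poly(A) RNA was sequenced in 8 libraries, 2 for each of 4 groups, and groups and replicate numbers came from the sample titles. The authors deposited raw read counts per gene symbol as 1 table, made with TopHat 2 (alignment, hg19) and NGSUtils (counting). Settings for strand and for reads with several positions were not given in the sources used here. The table also gave gene positions and lengths.

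CPM values were computed from these counts with TMM library sizes. Group means were compared in edgeR (version 4.0.16, R version 4.3.3): filterByExpr removed genes with low counts, the 8 libraries shared 1 quasi-likelihood fit (4 residual degrees of freedom), tests were two-sided, and Benjamini-Hochberg adjustment ran over all 17714 tested genes, with a call at an adjusted p under 0.05. The fit was tested on simulated data. The DESeq2 1.42.0 Wald test, other size factors and filters, a replicate block, fits on only the groups compared, an added unadjusted p under 0.01 and the omission of each library were alternatives.

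The members, lists and tests were chosen with earlier results of these data known, so counts over them are descriptions. Named genes were all members, at most 2 called genes per direction, list and comparison with the largest changes, the gene most alike to each member, and BRCA1 and CDKN1A. A gene that this rule names is not reported here. Floors cover counting error only. Figures were drawn with matplotlib 3.10.9.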

Additional observations from a re-analysis of the deposited data

How the results depend on the processing

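With 2 libraries per group, single libraries decide many calls. Of the 460 values under settings other than the omission of a library, 431 kept their direction and their side of the threshold, as did 413 of the 480 values without a library. The 460 include the added unadjusted p under 0.01, which reuses the main fit. Its values could not change direction. Every called member already had an edgeR p under 0.01, so no call could be lost there either. The number of members called between the lines in DMSO (2) was 3 with upper-quartile factors, the stricter filter (BID added in both) or the DESeq2 Wald test (BAX added), 4 with the replicate block (BAX and BID added) and 2 to 4 without a library. In entinostat (3) it was 4 with only the groups compared (BAX added), 5 with the replicate block (BAX and MCL1 added, the latter at 0.18 with an adjusted p of 0.0424) and 2 to 4 without a library. For entinostat in BRCA1+ cells (1) it was 2 with the stricter filter, the DESeq2 Wald test or only the groups compared, 3 with the replicate block, and 0 to 2 without a library. In BRCA1-null cells (2) it was 1 with DESeq2 size factors, no filter or the stricter filter, 0 with only the groups compared, and 0 to 1 without a library. Averaged over the lines (3) it was 4 with the replicate block (BID added) and 1 to 4 without a library. The number called in the interaction stayed at 0. Calls over all genes changed with the setting as well. With the replicate block they numbered 8398 for the lines in entinostat (6975 in the main fit) and 4314 for entinostat in BRCA1+ cells (2503). With only the groups compared they numbered 712 of 17359 genes for entinostat in BRCA1-null cells (1906 in the main fit). For the lines in entinostat that setting gave 6879 of 17355 genes, close to the main fit.

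Changes of sign occurred among differences that were not called. BMF between the lines in DMSO was 0.028 with upper-quartile factors and 0.021 with the stricter filter. The interactions of BAX, BAK1 and BCL2L11 were -0.030, -0.024 and -0.031 with upper-quartile factors and -0.025, -0.018 and -0.025 with the stricter filter, and that of BCL2L11 was -0.0036 with the DESeq2 Wald test, which also gave -0.0010 for BBC3 between the lines in entinostat.

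Without 1 library, values ranged as follows. MCL1 lay between -0.022 and 0.29 for the lines in DMSO, -0.20 and 0.11 for entinostat in the BRCA1+ line, -0.087 and 0.050 in the BRCA1-null line, -0.11 and 0.049 averaged, and -0.13 and 0.20 in the interaction. BAX lay between -0.23 and 0.013 for entinostat in the BRCA1+ line and between -0.12 and 0.13 in the interaction. BMF lay between -0.14 and 0.13 between the lines in DMSO, -1.23 and 0.097 in entinostat, and -1.21 and 0.11 in the interaction. BBC3 lay between -0.18 and 0.19 between the lines in entinostat and between -0.088 and 0.24 with entinostat in BRCA1-null cells. BCL2 lay between -0.37 and 0.023 between the lines in entinostat and between -0.16 and 0.23 in the interaction. The interactions of BAK1 and BCL2L11 lay between -0.032 and 0.063 and between -0.19 and 0.20. The cause of these changes was not tested.

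Upper-quartile factors moved the median of all genes with entinostat in BRCA1+ cells from 0.00041 to 0.048 and the share of higher genes among those called from 57.6% to 72.5%. Without length scaling BAX and BID changed places in the order of levels, as did PMAIP1 and BCL2L11. The labels do not tie replicate numbers to a shared batch. Deviations of same-numbered libraries from their group means correlated at 0.052 to 0.29 across genes. The replicate block raised the number of all genes called from 7472 to 8956 for the lines in DMSO and from 1906 to 3640 for entinostat in BRCA1-null cells. Fits that leave a group with 1 library assume that it varies like the other groups.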
